A study of Mus musculus with 20 samples.

Results

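The genes described here are the DNA replication machinery, 50 genes whose products mark origins, load and start the helicase, copy the strands and follow the fork. They were picked by gene symbol from a list of known replication factors, with 1 probe set found for each. All 50 were among the 12462 genes tested, out of 21928 gene symbols on the array. On all 20 arrays, 38 of the 50 lay above the array's median. Orc1, Pole2 and Tipin did so on 19 arrays and would have passed the filter on their DMSO_0h arrays alone. The other members did so on 16 to 18 arrays. These were Cdc6, Cdc45, Prim1, Rfc3, Mcm8, Gins1, Exo1, Chaf1b and Clspn. They passed the filter through the groups in which they were high, so their changes over time are read with that in mind.

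The study followed mouse regulatory T (Treg) cells, the Foxp3-expressing CD4 T cells that restrain immune responses, through stimulation with and without inhibitors of protein prenylation. Prenylation is the attachment of a farnesyl or a geranylgeranyl lipid to proteins such as small GTPases. Expression was read on Affymetrix arrays as log2 signal. All groups share the C57BL/6J background and the Foxp3YFP-Cre allele, which places a YFP-tagged Cre under Foxp3, and all cells were sorted as CD4+YFP+CD44loCD62Lhi (cTreg in the labels) from spleen and pLN. FTI_18h (3 arrays), GGTI_18h (2 arrays), FTI_48h (3 arrays) and GGTI_48h (3 arrays) were given an inhibitor for 2 h before stimulation and throughout it. DMSO_18h and DMSO_48h (3 arrays each) were stimulated for the same times under the DMSO label, with no pretreatment named. Stimulation was 10 ug/ml anti-CD3/28 antibodies with 200 U/ml IL-2. DMSO_0h (3 arrays) is the time-zero group, for which no stimulation is named. Neither the compound behind FTI nor that behind GGTI is named in the labels, and their doses were not known here. No group was cultured for 18 or 48 h without antibodies, so culture time, IL-2 and receptor stimulation cannot be told apart. Nothing in the labels ties replicates to separate mice, and the p-values therefore cover the spread between arrays, of whatever origin. With 2 or 3 arrays a group, that number limits the precision of all values.

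Replication in animal cells begins when the origin recognition complex, Cdc6 and Cdt1 place rings of Mcm2 to Mcm7 on DNA, a step called licensing. The kinase of Cdc7 and Dbf4 then lets Cdc45 and the GINS complex join the ring to form the active helicase. Polymerases alpha, delta and epsilon, the Pcna clamp, its Rfc loader, the RPA single-strand binder and the nucleases and ligase behind the fork complete the copy. Resting T cells hold many of these genes low and turn them on after antigen receptor and IL-2 signals, in large part through E2F transcription factors.

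Promoters were set beside the array values because several of these genes moved together. RefSeq promoter windows (GRCm38.p6, 250 bases before to 50 bases after a gene's start, 300 bases each) were at hand for 40 of the 50 members. Rfc2, Mcm4, Gins1, Tipin, Pole, Prim2, Gmnn, Exo1, Gins2 and Gins4 were not in the table. The windows were searched on both strands for 4 E2F-type motifs (TTTCCCGC, TTTCGCGC, TTTGCCGC and TTTGGCGC) and for CCAAT. An E2F-type match was present for 17 of the 40 members (42.5%), against 2.605% of all 27025 genes with a window. CCAAT was present for 24 members (60%), against 41.1% of all genes. Orc2, Rfc5 and Orc3 are shown because they had the smallest p-values among the members in the 48 h comparison of GGTI with DMSO, and Mcm5 and Orc1 stand for the helicase and for origin recognition. The windows are chr8:75109259-75109558 on the plus strand for Mcm5, chr4:108579204-108579503 on the plus strand for Orc1, chr4:34614893-34615192 on the minus strand for Orc3, chr1:58505060-58505359 on the minus strand for Orc2 (window 1 of 2 in the table) and chr5:117388974-117389273 on the minus strand for Rfc5. Each is written 5′ to 3′ in the gene's direction, with E2F-type and CCAAT matches in capitals.
Mcm5: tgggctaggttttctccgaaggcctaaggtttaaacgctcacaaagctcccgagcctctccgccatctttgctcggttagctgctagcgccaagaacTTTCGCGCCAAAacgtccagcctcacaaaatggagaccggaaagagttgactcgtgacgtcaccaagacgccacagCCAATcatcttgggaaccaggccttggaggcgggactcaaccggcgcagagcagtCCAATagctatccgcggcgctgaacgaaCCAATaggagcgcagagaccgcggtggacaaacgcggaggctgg
Orc1: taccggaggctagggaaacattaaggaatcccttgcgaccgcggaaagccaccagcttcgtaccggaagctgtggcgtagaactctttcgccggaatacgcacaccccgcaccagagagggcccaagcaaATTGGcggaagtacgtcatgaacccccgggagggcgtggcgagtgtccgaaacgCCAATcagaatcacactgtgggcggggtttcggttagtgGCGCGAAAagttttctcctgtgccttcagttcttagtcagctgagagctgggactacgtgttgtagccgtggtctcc
Orc3: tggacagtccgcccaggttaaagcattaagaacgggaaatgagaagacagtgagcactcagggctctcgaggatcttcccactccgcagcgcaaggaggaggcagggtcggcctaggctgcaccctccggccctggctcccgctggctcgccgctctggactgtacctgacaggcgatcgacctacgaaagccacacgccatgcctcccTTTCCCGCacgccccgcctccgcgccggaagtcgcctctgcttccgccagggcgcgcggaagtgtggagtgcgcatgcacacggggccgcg
Orc2: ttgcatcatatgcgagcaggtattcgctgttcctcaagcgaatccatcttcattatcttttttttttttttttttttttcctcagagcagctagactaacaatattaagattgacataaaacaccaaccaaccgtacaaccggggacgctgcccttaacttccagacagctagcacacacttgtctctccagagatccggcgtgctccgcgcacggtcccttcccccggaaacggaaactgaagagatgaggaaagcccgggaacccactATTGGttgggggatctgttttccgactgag
Rfc5: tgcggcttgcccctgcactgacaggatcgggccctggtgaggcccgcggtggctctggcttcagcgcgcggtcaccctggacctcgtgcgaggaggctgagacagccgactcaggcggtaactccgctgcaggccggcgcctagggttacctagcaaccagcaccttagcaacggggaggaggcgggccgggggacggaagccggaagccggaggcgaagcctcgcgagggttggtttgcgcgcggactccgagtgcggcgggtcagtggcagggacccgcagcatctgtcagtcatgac
The Mcm5 window held 2 overlapping E2F-type matches, 1 on each strand, and 3 CCAAT boxes. Orc1 had 1 E2F-type match and 2 CCAAT boxes, Orc3 had 1 E2F-type match, Orc2 had 1 CCAAT box on the reverse strand, and none of these letters occurred in the Rfc5 window. The 17 members with an E2F-type match had a median log2 change of 1.44 between DMSO_18h and DMSO_0h, and the 23 without had 1.36. A match describes letters in a window and was not tested as a binding site.

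Treg identity and CD4 T cell markers were above the negative-control median, the array's own measure of background, in nearly all cases (11 or 12 of 12 and 6 of 6 genes in each group). Lyz2, Csf1r and Itgax of myeloid and dendritic cells and Klrb1c, Ncr1 and Klrd1 of NK cells were not above it in any group. Other markers of these cells were, with 3 or 4 of 7 myeloid and dendritic genes above it in each group. The same held for 2 of 5 CD8 T and NK cell genes. Of 5 B cell genes 1 to 4 were above it, depending on the group, and of 5 red cell genes 2 to 4. Traces of other cells are thus not excluded. The negative-control medians were lower on the stimulated arrays (4.94 to 5.32) than on the DMSO_0h arrays (5.58 to 5.67). In DMSO_0h the means of 4 members, Gins1, Exo1, Mcm8 and Clspn, lay at or below that background, so the sizes of their changes from 0 h are limited by it. No member did so in another group. In bulk RNA, fewer cells of a kind and less RNA per cell cannot be told apart.

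Stimulated Treg cells carried far more replication mRNA than cells at 0 h. By 18 h, 47 of the 50 members had risen and none had fallen, where 33.7% of all genes rose, 27.2% fell and 60.9% changed in either direction (limma, Benjamini-Hochberg adjusted p under 0.05). The median change of the members was log2 1.44, against 0.00 over all genes tested, and 36 members had changed at least 2-fold. By 48 h, 48 members had risen relative to DMSO_0h, with a median of log2 1.81, where 38.5% of all genes rose, 36.2% fell and 74.7% changed. The stimulated arrays of 46 members at 18 h, and of 47 members at 48 h, all lay above the DMSO_0h arrays. Of all genes, 32.7% lay higher and 26.9% lower without overlap at 18 h, and 38.4% and 36.2% at 48 h. Averaged over the 50 genes, log2 signal was 7.42, 7.66 and 7.50 on the DMSO_0h arrays, 9.06, 9.26 and 9.15 on the DMSO_18h arrays and 9.36, 9.45 and 9.40 on the DMSO_48h arrays. The myeloid and dendritic list averaged 5.98 to 6.11 on DMSO_18h arrays and 6.51 to 6.58 on DMSO_0h arrays, and the red cell list 5.39 to 5.65 on DMSO_18h arrays and 5.93 to 6.70 on DMSO_0h arrays. Both list means were thus lower at 18 h while replication genes were higher. The negative-control median was lower as well, at 5.17 in DMSO_18h and 5.64 in DMSO_0h. Only 3 of the 7 myeloid and dendritic genes were above it in either group. Of the 3 genes of that list that were tested, 1 was higher and 2 lower at 18 h. Of the 4 red cell genes tested, 3 were lower and 0 higher. The part of either list in the result was not tested.

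**Figure D1:**
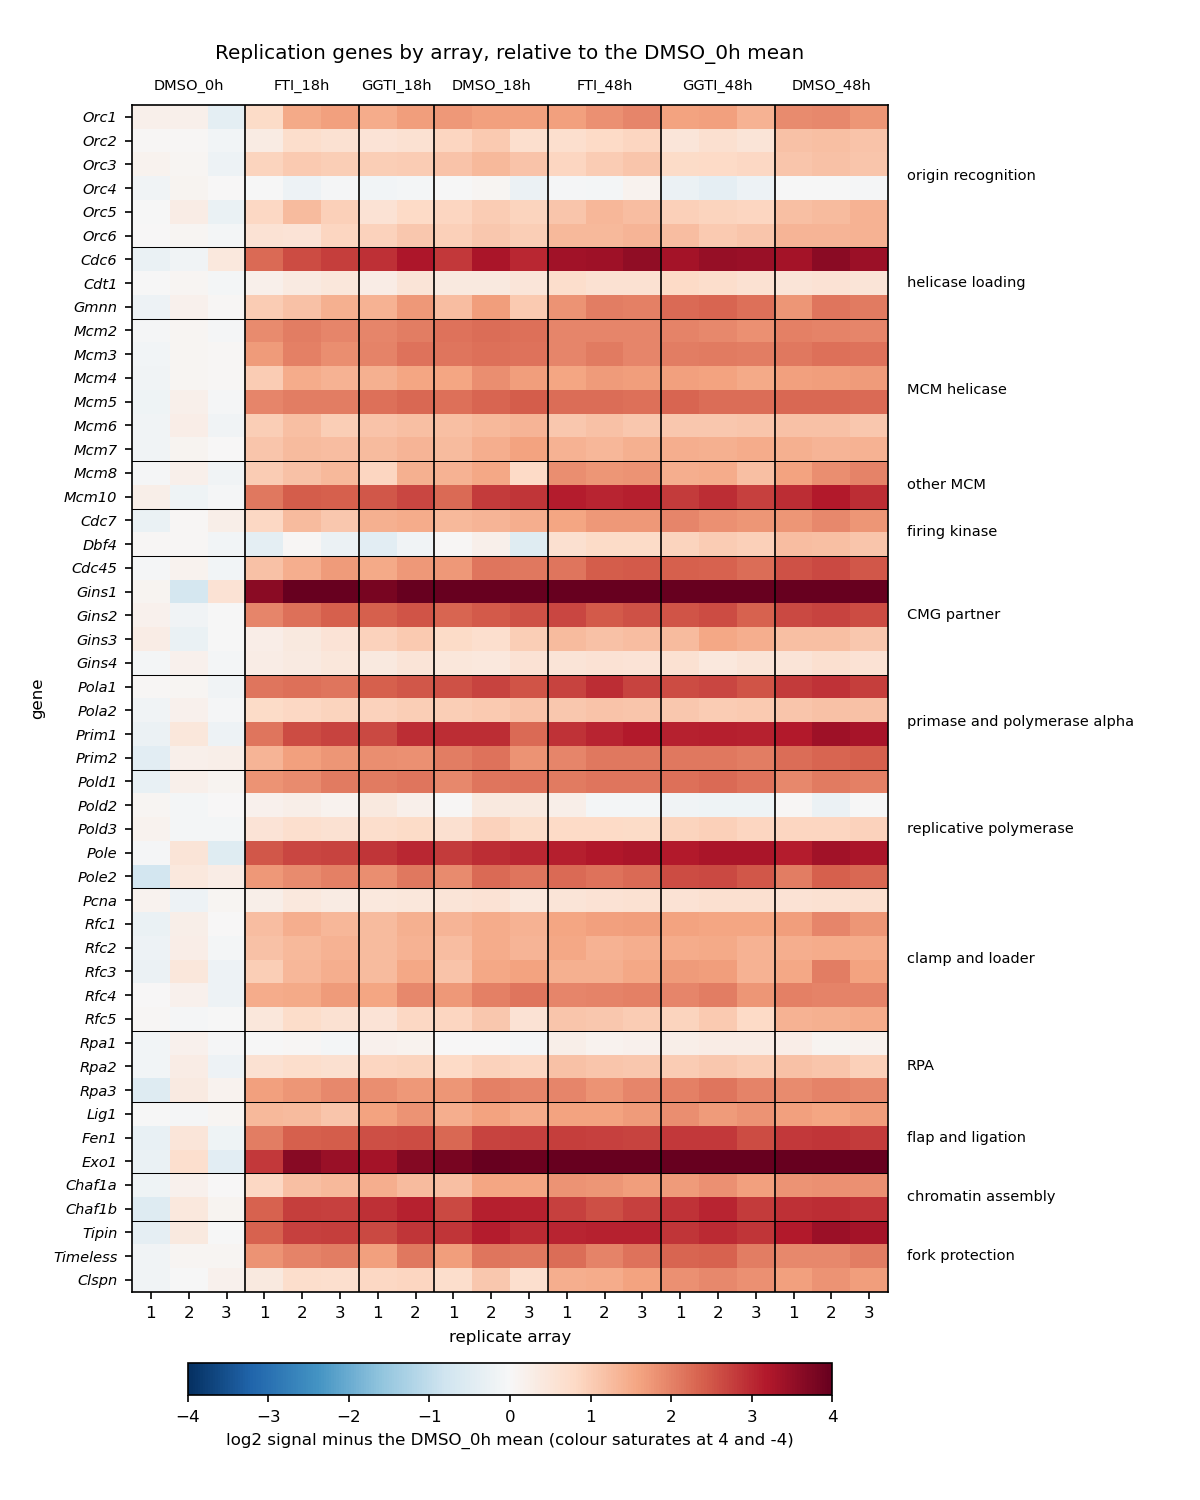
Log2 signal of each of the 50 replication genes (rows, ordered by role) on each of the 20 arrays (columns, by group), minus the gene's DMSO_0h mean; the colour scale saturates at 4 and -4. Nearly all rows turn red in the 18 h and 48 h columns, while Orc4, Rpa1 and Pold2 stay near white and Dbf4 turns red at 48 h.

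Origin recognition and licensing factors rose unequally. Of the 6 Orc genes, 5 rose at 18 h, with a median of log2 0.96 over the 6. Orc1, the subunit whose level varies most through the cell cycle in mammals, had log2 signals of 6.68, 6.68 and 6.10 in DMSO_0h, 8.23, 8.14 and 8.11 in DMSO_18h and 8.38, 8.40 and 8.26 in DMSO_48h. Its stimulated arrays all lay above the 0 h arrays, with a rise of log2 1.68 ± 0.18 (SE) at 18 h (limma adjusted p = 1.64e-07). Orc4, another core subunit of the complex, stayed within 8.13 to 8.48 on the same 9 arrays, which overlapped between the times. Its change was log2 -0.06 at 18 h, with a 95% interval of -0.26 to 0.14. Cdc6, which brings the helicase to the origin, had the largest rise in this set. Its signals were 5.54, 5.65 and 6.22 at 0 h, 8.64, 9.08 and 8.82 at 18 h and 9.14, 9.43 and 9.23 at 48 h under DMSO. The rise was log2 3.04 ± 0.16 at 18 h (limma adjusted p = 1.46e-11). Its signals on DMSO_0h replicates 1 and 2 lay below those arrays' negative-control medians, so the size of this rise is limited by background as well. Cdt1, the partner of Cdc6, rose by only 0.42 ± 0.08, and geminin (Gmnn), the inhibitor of Cdt1, by 1.32 ± 0.15.

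All 6 genes of the Mcm2 to Mcm7 ring, the core of the replicative helicase, rose at 18 h, by log2 1.29 (Mcm6) to 2.32 (Mcm5). Mcm5 signals were 8.48, 8.85 and 8.62 in DMSO_0h, 10.87, 10.99 and 11.07 in DMSO_18h and 10.95, 10.94 and 10.92 in DMSO_48h. The stimulated arrays lay in 1 narrow band, well above the 0 h arrays, and the 18 h rise was log2 2.32 ± 0.083 (limma adjusted p = 1.12e-13). Mcm2 had 8.74, 8.89 and 8.77 at 0 h, 10.96, 11.03 and 11.01 at 18 h and 10.80, 10.80 and 10.74 at 48 h. Its 48 h arrays were below its 18 h arrays and still far above those at 0 h. Mcm10, which helps switch the loaded ring on, rose by log2 2.65 ± 0.14 and Mcm8, a related helicase of recombination repair, by 1.24 ± 0.17 at 18 h.

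Among the factors that start the helicase, Cdc7 rose by log2 1.36 ± 0.12 at 18 h while its activating subunit Dbf4 had a change of -0.09 (95% interval -0.38 to 0.20). Dbf4 signals were 6.999, 6.986 and 6.851 in DMSO_0h, 6.98, 7.14 and 6.45 in DMSO_18h and 8.19, 8.15 and 8.07 in DMSO_48h. The 0 h and 18 h arrays overlapped, and all 48 h arrays lay above both. Cdc45 and the 4 GINS genes, which complete the helicase, all rose at 18 h, from 0.49 (Gins4) to 4.11 (Gins1) on the log2 scale. Gins1 signals were 4.20, 3.38 and 4.65 at 0 h, all below the background level, 8.05, 8.32 and 8.19 at 18 h and 8.52, 8.84 and 8.73 at 48 h under DMSO. The size of its rise is limited by background at 0 h.

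The copying enzymes also rose together. All 4 primase and polymerase alpha genes did so at 18 h, with a median of log2 2.30, and Pola1, the catalytic subunit of polymerase alpha, had the smallest adjusted p of the 4 (log2 2.59 ± 0.085, limma adjusted p = 3.64e-14). Its signals were 7.24, 7.29 and 7.07 in DMSO_0h, 9.76, 9.91 and 9.70 in DMSO_18h and 10.00, 10.09 and 9.98 in DMSO_48h. All 5 polymerase delta and epsilon genes rose at 18 h, by between 0.28 (Pold2) and 2.92 (Pole, the epsilon catalytic subunit). Pold2 overlapped between DMSO_18h and DMSO_0h on single arrays although it passed the test, and at 48 h its change from 0 h was -0.06 and did not pass. Its 18 h call was lost in 5 of 13 alternatives. The clamp Pcna, a ring that holds polymerases on DNA, had 10.84, 10.50 and 10.80 in DMSO_0h, 11.23, 11.31 and 11.12 in DMSO_18h and 11.30, 11.31 and 11.36 in DMSO_48h. It rose by 0.50 ± 0.085 at 18 h without overlap, while the 5 clamp loader genes rose by 0.84 (Rfc5) to 1.98 (Rfc4).

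Behind the fork, the flap nuclease Fen1, the ligase Lig1 and the exonuclease Exo1 rose by log2 2.58, 1.51 and 3.93 at 18 h. Exo1 signals were 3.86, 4.80 and 3.71 at 0 h, below background, 7.93, 8.19 and 8.04 at 18 h and 8.65, 8.78 and 8.53 at 48 h under DMSO. Both chromatin assembly genes, Chaf1a and Chaf1b, which deposit histones on new DNA, rose by 1.45 and 2.95. The Chaf1b mean in DMSO_0h, 5.68, was close to the background of 5.64, which limits the size of its rise. Tipin and Timeless, the fork protection pair, rose by 3.00 and 1.98. Rpa1, the large single-strand binding subunit, had a change of -0.01 (95% interval -0.16 to 0.15) at 18 h, while Rpa2 and Rpa3 rose by 0.85 and 1.90 at 18 h. The rise of Rpa1 at 48 h, 0.17, passed the test but lost its call in 6 of 13 alternatives. The counts for both times against 0 h stayed between 46 and 48 under all alternatives and with each array left out.

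From 18 to 48 h some members rose further, with Dbf4 and Clspn the largest, and none of the helicase ring genes did. Under DMSO, 17 members were higher and 2 lower at 48 h than at 18 h, where 16.4% of all genes were higher, 12.6% lower and 29.1% changed. The 48 h arrays of 28 members were all higher and those of 3 all lower than the 18 h arrays, against 23.3% and 19.8% of all genes. The median change was log2 0.22. The changes of the 6 ring genes lay between -0.22 and -0.01. Dbf4 rose by 1.28 ± 0.14 (limma adjusted p = 1.81e-06), and Clspn (claspin), which carries fork stress signals to the kinase Chk1, by 0.90 ± 0.11 (limma adjusted p = 7.37e-06). Clspn signals were 5.40, 5.53 and 5.73 in DMSO_0h, 6.25, 6.61 and 6.21 in DMSO_18h and 7.20, 7.35 and 7.22 in DMSO_48h. Its 3 times did not overlap. Gmnn, Exo1, Rfc5, Cdc45 and Mcm8 rose by 0.57 to 0.67, and the other 10 rises were between 0.23 (Pola1) and 0.55 (Prim1). Mcm2 and Pold2 fell, with changes of -0.22 and -0.35, and both calls were lost when arrays were centred on a median of their own, which gave 20 higher and 0 lower. The count of 19 became 12 without DMSO_18h replicate 1, 12 without DMSO_18h replicate 3, 8 without DMSO_48h replicate 2 and 11 without DMSO_48h replicate 3.

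Mitosis genes had another time course. Between 18 h and 48 h, 17 of 50 replication genes rose, with a median of log2 0.22. All 28 genes of a mitosis list rose, with a median of 1.57, where 16.4% of all genes rose. At 18 h the medians relative to DMSO_0h were 1.44 for replication and 1.77 for mitosis. In DMSO_0h only 17 of the 28 mitosis genes were above the negative-control median, so the mitosis median against 0 h is limited by background. Mean mitosis signal per array was 6.03, 6.26 and 6.09 in DMSO_0h, 7.79, 8.08 and 8.01 in DMSO_18h and 9.43, 9.49 and 9.47 in DMSO_48h. The difference between the lists was described and not tested. Among 26 other replication factors, 21 rose and 1 fell at 18 h, where 33.7% of all genes rose and 27.2% fell. Uhrf1 (log2 3.15, a partner of maintenance DNA methylation), Wdhd1 (2.53, a fork scaffold) and Ticrr (2.34, a helicase activation factor) were among the smallest p-values. Of the same 26, 8 rose and 1 fell from 18 to 48 h. That share of 34.6% was near the 29.1% of all genes that changed.

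**Figure D2:**
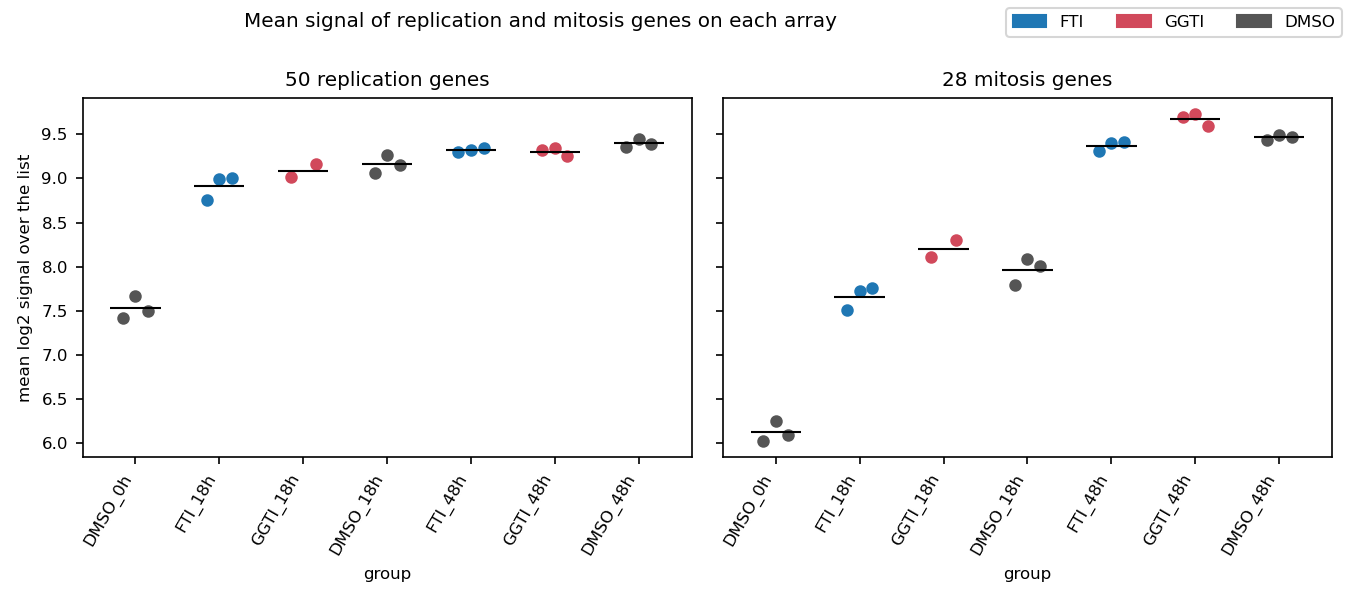
Mean log2 signal over the 50 replication genes (left) and over 28 mitosis genes (right) on each array; points are arrays, bars are group means, and colours mark FTI, GGTI and DMSO. Replication means under DMSO lie at 7.42 to 7.66 at 0 h, 9.06 to 9.26 at 18 h and 9.36 to 9.45 at 48 h, and mitosis means at 6.03 to 6.26, 7.79 to 8.08 and 9.43 to 9.49.

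FTI at 18 h went with lower replication signals in nearly all members, by small amounts. The change was negative for 49 of 50 members, with a median of log2 -0.24 against 0.00 over all genes. Only 6 passed the test, all lower, where 0.682% of all genes were lower, 2.62% higher and 3.3% changed. An unadjusted p under 0.05 was found for 25 members, and for 2067 of all 12462 genes tested. The arrays of 20 members were all lower in FTI_18h than in DMSO_18h without overlap, against 7.75% of all genes. Mean replication signal was 8.75, 8.99 and 9.01 on the FTI_18h arrays, against 9.06, 9.26 and 9.15 on the DMSO_18h arrays. FTI_18h replicate 1 was the lowest of the stimulated arrays. The Treg identity list averaged 9.65 to 9.68 on the FTI_18h arrays and 9.51 to 9.55 on the DMSO_18h arrays, and the CD4 T cell list 10.96 to 11.001 on the FTI_18h arrays and 10.78 to 10.85 on the DMSO_18h arrays. Their part in the result was not tested.

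The 6 called genes came from several steps of replication. Cdc45, the helicase cofactor, had 7.31, 7.59 and 7.83 in FTI_18h, against 7.88, 8.29 and 8.26 in DMSO_18h. Its groups did not overlap, and the change was log2 -0.57 ± 0.13 (limma adjusted p = 0.0225). Pola1 had 9.33, 9.40 and 9.36 in FTI_18h, against 9.76, 9.91 and 9.70 in DMSO_18h, a change of -0.43 ± 0.085 (limma adjusted p = 0.00937). Orc6, a small Orc subunit, Mcm3 and Mcm5 of the ring, and Lig1 had changes of -0.36, -0.31, -0.31 and -0.30. Cdc6 had 8.07, 8.40 and 8.58 in FTI_18h, against 8.64, 9.08 and 8.82 in DMSO_18h, and its change of -0.50 did not pass (limma adjusted p = 0.105). Exo1 had the largest change, -0.62, with a 95% interval of -1.07 to -0.17, and did not pass either. For the other 49 members the interval excluded a 2-fold change. Of 28 mitosis genes, 3 were called under FTI at 18 h, Nuf2, Top2a and Birc5, all lower. That share was 10.7%, against 3.3% of all genes. Over the 28 the median change was log2 -0.32, with 25 negative and 3 positive. Small lower signals under FTI at 18 h were thus not particular to replication genes.

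These calls rested on few arrays. The count of 6 became 1 without FTI_18h replicate 1, 3 without FTI_18h replicate 2 or replicate 3, 10 without DMSO_18h replicate 1, 0 without DMSO_18h replicate 2 and 1 without DMSO_18h replicate 3. It was 0 when only the FTI_18h and DMSO_18h arrays entered the fit, and the called changes stayed negative throughout.

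GGTI at 18 h gave no called member. The count was 0 of 50, where 3.86% of all genes were higher, 2.08% lower and 5.94% changed. It became 1 when DMSO_18h replicate 1 was left out. An unadjusted p under 0.05 was found for 4 members, and for 2294 of all 12462 genes tested. The median change was log2 -0.07 and the 95% interval excluded a 2-fold change for all 50 members. Mcm5 had 10.87 and 10.96 in GGTI_18h, against 10.87, 10.99 and 11.07 in DMSO_18h, and its groups overlapped. Cdc45 had 7.66 and 7.87 in GGTI_18h, against 7.88, 8.29 and 8.26 in DMSO_18h, all lower by a small margin (log2 -0.38 ± 0.15, limma adjusted p = 0.145). Over all members the mean signal was 9.01 and 9.16 on the GGTI_18h arrays, within or next to the DMSO_18h arrays. The spread of GGTI_18h, with 2 arrays, was estimated together with the other groups. In the same comparison 5 of 28 mitosis genes rose and none fell, Nusap1 (a spindle protein) by 1.04 ± 0.12.

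At 18 h the direct comparison of GGTI with FTI called 2 members, both higher with GGTI, where 1.36% of all genes were higher, 0.923% lower and 2.29% changed. The GINS subunit Gins3 had 7.90 and 8.02 in GGTI_18h, against 7.25, 7.38 and 7.53 in FTI_18h, a difference of log2 0.57 ± 0.13 (limma adjusted p = 0.0265). Lig1 had 8.75 and 8.94 in GGTI_18h, against 8.44, 8.40 and 8.24 in FTI_18h, a difference of 0.49 ± 0.086 (limma adjusted p = 0.00507). Neither gene overlapped between the inhibitors. The difference was positive for 44 of 50 members, with a median of 0.17. The count of 2 became 1 without FTI_18h replicate 1, FTI_18h replicate 2 or GGTI_18h replicate 1, and 0 without GGTI_18h replicate 2 or when only these arrays entered the fit.

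**Figure D3:**
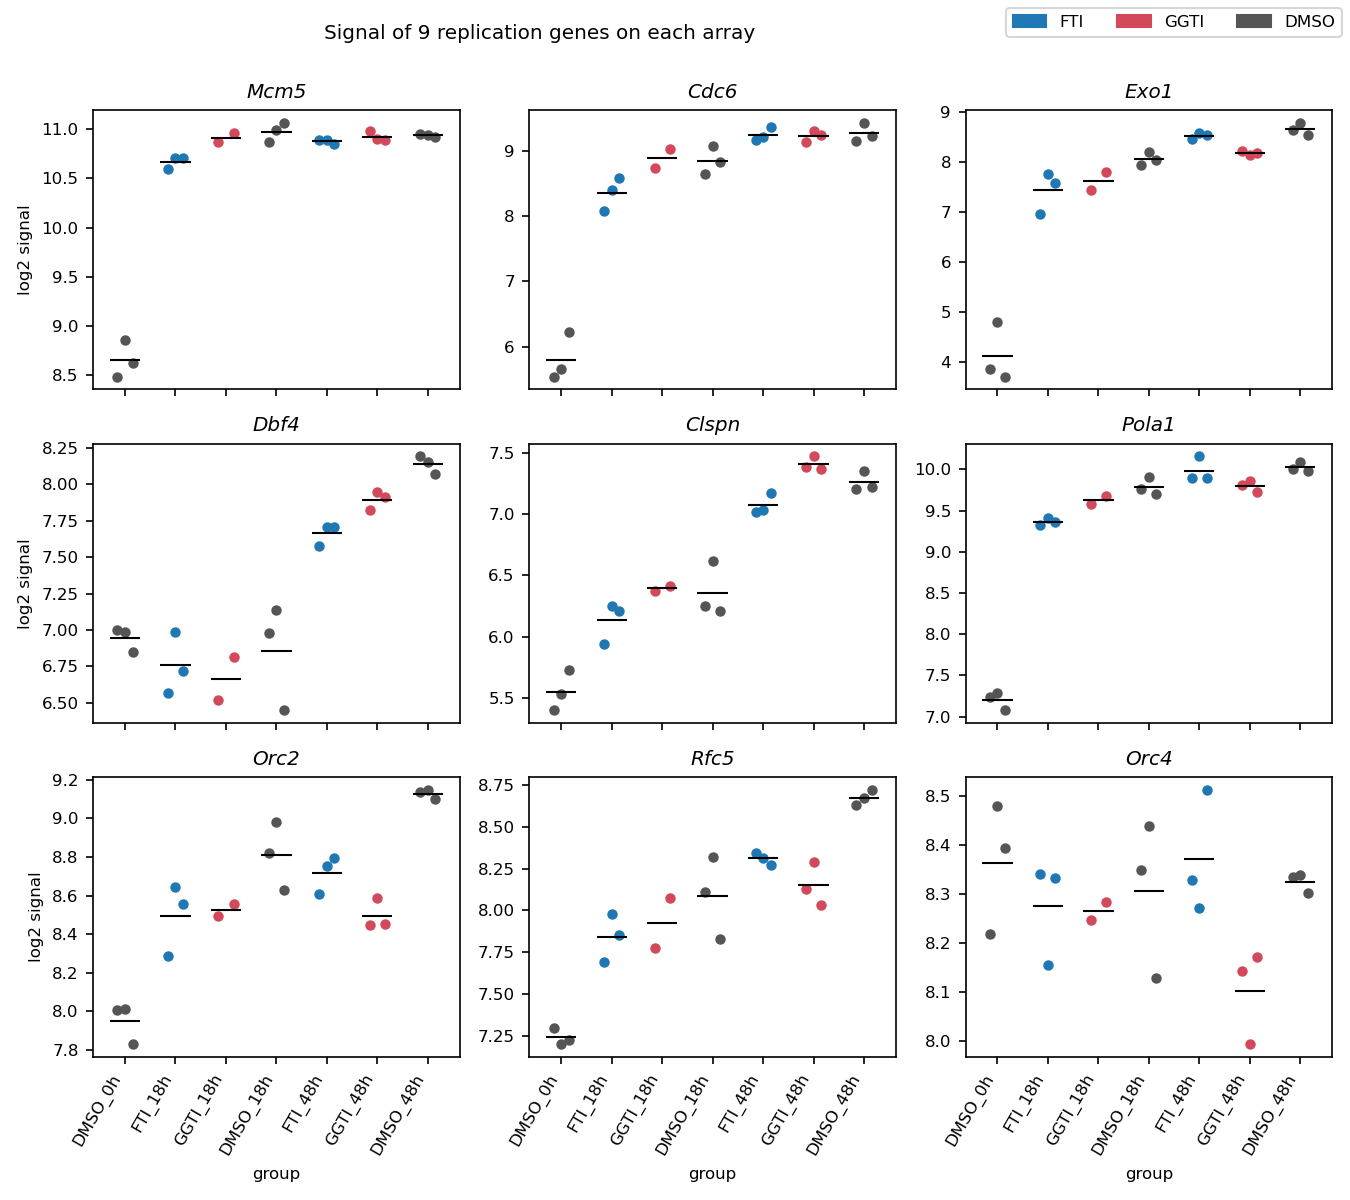
Log2 signal of 9 replication genes on each array by group; points are arrays and bars are group means, with colours for FTI, GGTI and DMSO. Mcm5, Cdc6, Exo1 and Pola1 jump at 18 h, Dbf4 and Clspn lie higher at 48 h than at 18 h, Orc2 and Rfc5 lie lower in GGTI_48h than in DMSO_48h, and Orc4 stays between 7.99 and 8.51.

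At 48 h few members differed between FTI and DMSO cultures by the test. The median change was log2 -0.05, and 2 members were called lower, where 3.08% of all genes were lower, 4.58% higher and 7.66% changed. Orc2, a core origin recognition subunit, had 8.61, 8.75 and 8.80 in FTI_48h, against 9.14, 9.15 and 9.10 in DMSO_48h. The groups did not overlap, and the change was -0.41 ± 0.10 (limma adjusted p = 0.0151). Dbf4 had 7.58, 7.71 and 7.70 in FTI_48h, against 8.19, 8.15 and 8.07 in DMSO_48h, a change of -0.48 ± 0.14 (limma adjusted p = 0.0412). Mean replication signal was 9.30, 9.32 and 9.34 on the FTI_48h arrays, against 9.36, 9.45 and 9.40 on the DMSO_48h arrays, without overlap. The Treg identity list averaged 9.48 to 9.52 on the FTI_48h arrays and 9.28 to 9.33 on the DMSO_48h arrays, and the CD4 T cell list 10.89 to 10.99 on the FTI_48h arrays and 10.73 to 10.78 on the DMSO_48h arrays. The myeloid and dendritic list averaged 6.15 to 6.20 on the FTI_48h arrays and 5.99 to 6.05 on the DMSO_48h arrays. Their part in the result was not tested. The 95% interval excluded a 2-fold change for all 50 members. The count of 2 became 0 without FTI_48h replicate 1 or DMSO_48h replicate 2, and 1 when any other of the 6 arrays was left out.

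GGTI at 48 h went with lower signals of origin recognition genes and of a few others. None of the ring genes was called, nor were Cdc6, Cdt1 and Gmnn. Of 50 members, 8 were lower and none higher, a share of 16%, where 21.9% of all genes were lower, 18.4% higher and 40.3% changed. The members' share was thus below that of all genes. Their median was log2 -0.09 against -0.01 over all genes. Of the 6 Orc genes 4 were lower, Orc2, Orc3, Orc5 and Orc6, and the median over the 6 was -0.33. The Orc count became 2 (Orc2 and Orc3) without DMSO_48h replicate 3, GGTI_48h replicate 2 or GGTI_48h replicate 3. The changes of the 6 ring genes lay between -0.10 and 0.06, and none of the 5 polymerase delta and epsilon genes was called.

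Orc2 had 8.45, 8.59 and 8.45 in GGTI_48h, against 9.14, 9.15 and 9.10 in DMSO_48h. The groups lay well apart, and the change was log2 -0.63 ± 0.10 (limma adjusted p = 5.12e-05), a 1.55-fold lower signal. Orc3, which binds Orc2 within the complex, had 10.21, 10.26 and 10.27 in GGTI_48h, against 10.58, 10.61 and 10.56 in DMSO_48h. Its change was -0.34 ± 0.086 (limma adjusted p = 0.00396). Orc5 had 7.74, 7.68 and 7.65 in GGTI_48h, against 7.99, 8.04 and 8.18 in DMSO_48h, and its change was -0.38 ± 0.12 (limma adjusted p = 0.0202). Orc6 had the smallest called change of the complex, -0.24, and Orc1 and Orc4, at -0.32 and -0.22, did not pass.

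The clamp loader subunit Rfc5 had 8.13, 8.29 and 8.03 in GGTI_48h, against 8.63, 8.67 and 8.72 in DMSO_48h. The groups did not overlap, and the change was log2 -0.52 ± 0.11 (limma adjusted p = 0.000845). Mcm8, Tipin and Pola1 were also lower, with changes of -0.44, -0.41 and -0.23. In contrast Mcm5 had 10.98, 10.90 and 10.89 in GGTI_48h, against 10.95, 10.94 and 10.92 in DMSO_48h, and Cdc6 had 9.13, 9.30 and 9.25 in GGTI_48h, against 9.14, 9.43 and 9.23 in DMSO_48h. Both pairs of groups overlapped, with changes of -0.02 (95% interval -0.19 to 0.16) and -0.04 (-0.38 to 0.30). The arrays of 21 members were all lower and those of 8 all higher without overlap, against 29.8% and 25.3% of all genes.

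Orc2, Orc3 and Rfc5 kept their calls under all 13 alternatives run for each, Orc2 with a change between log2 -0.68 and -0.61. The count of 8 became 4 without DMSO_48h replicate 2, 3 without DMSO_48h replicate 3, 5 without GGTI_48h replicate 1 or replicate 2 and 3 without GGTI_48h replicate 3, and it rose to 18 (4 higher, 14 lower) when only these 6 arrays entered the fit. That fit called 45.4% of all genes. The Treg identity list averaged 9.65 to 9.68 on the GGTI_48h arrays and 9.28 to 9.33 on the DMSO_48h arrays, and the red cell list 5.44 to 5.99 on the GGTI_48h arrays and 5.002 to 5.283 on the DMSO_48h arrays. The myeloid and dendritic list averaged 6.12 to 6.27 on the GGTI_48h arrays and 5.99 to 6.05 on the DMSO_48h arrays. The part of cell make-up in the result was not tested.

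Of 26 other replication factors, 3 rose and 8 fell with GGTI at 48 h, a share of 42.3% called against 40.3% of all genes, and so near the background. The histone chaperone Asf1a and the nuclease Dna2 fell, with changes of log2 -0.59 ± 0.076 and -0.76 ± 0.13, as did Top1, the topoisomerase that relieves twist ahead of forks, at -0.36. The polymerase delta subunit Pold4 rose by 0.30. Of 28 mitosis genes, 8 rose and none fell, Nusap1 by 0.87 ± 0.10.

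Between the inhibitors at 48 h, 2 members were called, 1 in each direction, where 13.6% of all genes were higher, 13.9% lower and 27.5% changed. Clspn had 7.39, 7.47 and 7.37 in GGTI_48h, against 7.02, 7.04 and 7.17 in FTI_48h, a difference of log2 0.33 ± 0.11 (limma adjusted p = 0.0282). Orc4 had 8.14, 7.99 and 8.17 in GGTI_48h, against 8.33, 8.27 and 8.51 in FTI_48h, a difference of -0.27 ± 0.094 (limma adjusted p = 0.0398). Neither pair of groups overlapped, but all intervals excluded a 2-fold difference. The called count became 1 without any single FTI_48h array, 0 without GGTI_48h replicate 1 or replicate 2, 9 when only these 6 arrays entered the fit, and 1 higher with 0 lower when arrays were centred on the gene median. Without FTI_48h replicate 1 both Clspn and Orc4 lost the call, so the 1 left was another member. The fit on only these 6 arrays called 32.7% of all genes. Orc2 was lower than in DMSO_48h with either inhibitor, but both comparisons use the same DMSO_48h arrays and so are not independent. Its difference between GGTI_48h and FTI_48h did not pass.

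**Figure D4:**
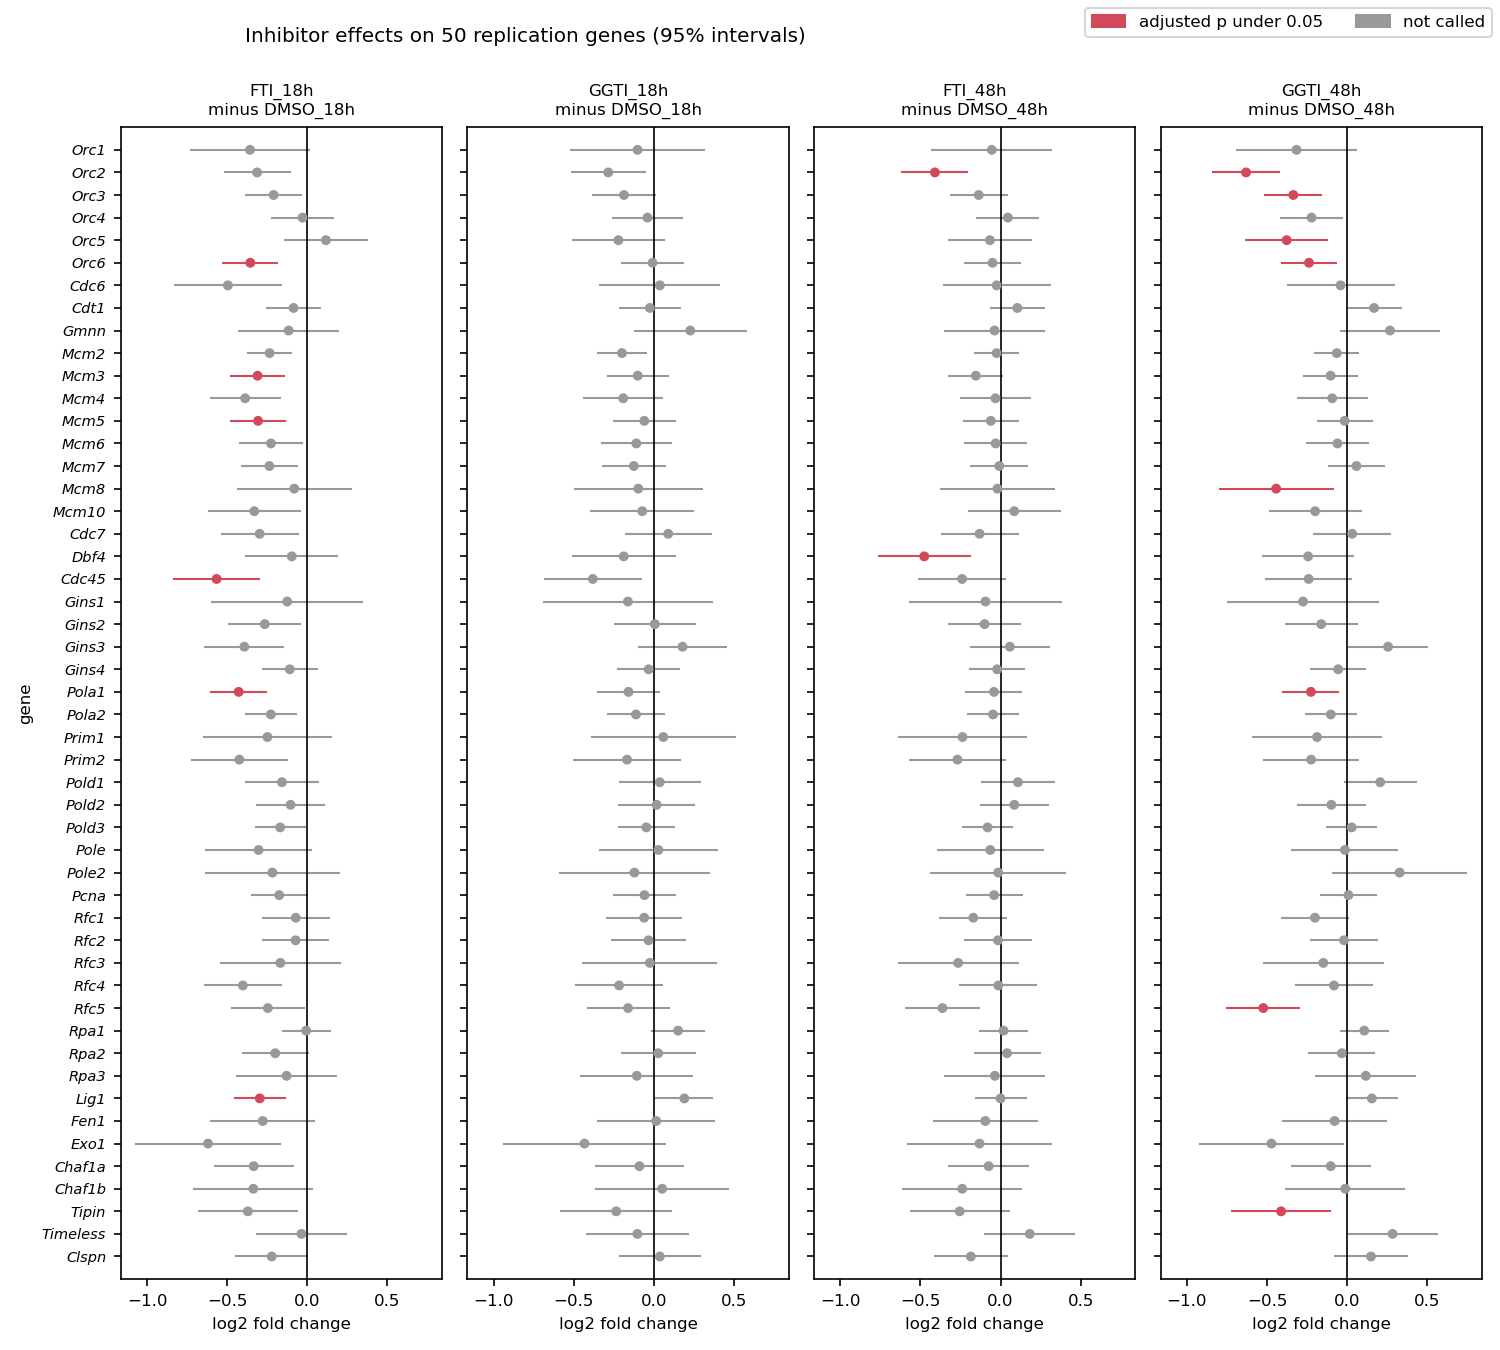
Log2 fold change of each of the 50 replication genes for FTI and GGTI against DMSO of the same time, with 95% intervals from limma; red marks an adjusted p under 0.05. All points lie within log2 1 of 0, those of FTI at 18 h are shifted to the left for 49 of 50 genes, and the red points number 6, 0, 2 and 8 from left to right.

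Whether inhibitor effects changed with time was tested directly. No member passed for FTI (where 0.433% of all genes did) or for GGTI (where 9.51% did, 4.97% higher and 4.54% lower). For FTI 8 members, and for GGTI 2, had an unadjusted p under 0.05. These counts stand without the share of all genes and are not read as a result. For Pola1 the FTI effect was log2 0.39 ± 0.12 less negative at 48 h than at 18 h (limma adjusted p = 0.251). For Orc2 the GGTI effect was more negative at 48 h by -0.35 ± 0.15 (limma adjusted p = 0.179). The lower FTI signals at 18 h and the lower GGTI signals at 48 h are therefore not shown to belong to 1 time.

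Under FTI 23 members rose and none fell from 18 to 48 h, with a median of log2 0.37, where 9.49% of all genes rose, 7.13% fell and 16.6% changed. Exo1 rose most, by 1.09 ± 0.22, with 8.45, 8.58 and 8.53 in FTI_48h, against 6.97, 7.76 and 7.58 in FTI_18h. Clspn, Dbf4, Cdc45 and Cdc6 rose by 0.94, 0.91, 0.89 and 0.89. Of these 23 genes, 13 also rose under DMSO, and Cdc6, Cdt1, Mcm4, Gins2, Pola2, Prim2, Pole, Rfc4, Rpa2 and Lig1 were called under FTI and not under DMSO. The direct test between these time courses, given above as the test of the inhibitor effect over time, called none of them. Without FTI_18h replicate 1 the count was 15.

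Under GGTI 7 members rose and 1 fell from 18 to 48 h, with a median of log2 0.17, where 12.6% of all genes rose, 9.18% fell and 21.8% changed, so the share of members called was not above that of all genes. Dbf4 rose by 1.23 ± 0.15, with 7.82, 7.95 and 7.91 in GGTI_48h, against 6.52 and 6.81 in GGTI_18h. Clspn, Gmnn and Cdc45 rose by 1.02, 0.71 and 0.71. Pold2, which also fell under DMSO, had a change of -0.46 ± 0.11. The count of 8 became 3 without GGTI_18h replicate 1 and 5 without GGTI_48h replicate 2.

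Over the 7 groups, the DMSO_0h mean was the lowest for 46 of 50 members, the others being Orc4, Dbf4, Pold2 and Rpa1. The highest mean was in DMSO_48h for 25 members, in GGTI_48h for 14, in DMSO_18h for 6, in FTI_48h for 3 and in GGTI_18h for 2. These orders describe means, and neighbouring groups often overlapped. The range of the 7 group means was smallest among the 4 exceptions for Orc4, at log2 0.27, and largest for Dbf4, at 1.47.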

How the data were processed

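RMA normalization was done by the authors in Affymetrix Expression Console 1.1, per the submitters' processing notes, and gave the deposited log2 signals. Labelling started from 1 to 20 ng of total RNA by a NuGEN amplification protocol, per the labels' protocols. RMA gives all arrays 1 distribution of probe intensities, so values are relative within an array. The deposited probe-set values kept small differences, with array medians over all probe sets of 6.00 to 6.20. Both deposited tables hold the same values to within 1.8e-15.

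Of 28846 probe sets, 22202 have 1 gene symbol, and 20468 of those were matched by accession, which updated 911 symbols. A probe set was kept if 2 or more arrays had it above the overall median of that array, and the one with the highest mean stood for its gene, which left 12462 genes. The fit (limma 3.58.1, R 4.3.3) had 7 group means on 20 arrays, 13 comparisons, moderated variances, 2-sided p-values and Benjamini-Hochberg adjustment over all genes at 0.05. Values after ± are standard errors. The script was tested on simulated data. A member counted as at background where its mean in a group did not exceed the negative-control median averaged over that group's arrays.

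Members, lists and tests were chosen with earlier results of these data known. Any member could be named. Full statistics went to the 4 largest rises and falls and to a set of central genes, and of other lists to up to 4 genes by smallest p. Some further members are given with values to illustrate a step, chosen after their values were seen. Promoter windows come from RefSeq (GRCm38.p6). Alternatives were no filter, the mean of a gene's probe sets, 2 centrings, array quality weights, trend and robust moderation, a fit on only the arrays compared and leaving out each array. Centring on the median of all probe sets was added after seeing the data.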

Additional observations from a re-analysis of the deposited data

How the results depend on the processing

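No called change of a named member turned direction under any alternative run for it, and changes that were not called were not followed. In repeats of single-gene results 876 kept their side of the threshold and 130 lost it. These repeats covered only the largest called changes and a set of central genes. Within them no loss was in a comparison with DMSO_0h, so the pooled count does not describe the inhibitor calls. Outside them, Pold2 lost its 18 h call against DMSO_0h in 5 of 13 alternatives. Rpa1 lost its 48 h call against DMSO_0h in 6 of 13. For FTI at 18 h, Lig1, Mcm3 and Mcm5 each lost the call in 10 of 13 alternatives. Orc6 lost it in 7, Cdc45 in 5 and Pola1 in 2. Counts of called members against 0 h stayed within 46 to 48. For DMSO_48h against DMSO_18h (19 called), leaving out 1 array gave 8 to 17. For FTI_18h against DMSO_18h (6 called), the count was 2 with no filter, 2 centred on the gene median, 3 centred on the median of all probe sets, 3 with array weights, 11 with trend and robust moderation and 0 with only the arrays compared, and leaving out 1 array gave 0 to 10. Of all genes, these settings in the same order called 0.835%, 2.73%, 2.55%, 2.29%, 4.87% and 0.289%. For GGTI_18h against DMSO_18h (0 called), leaving out 1 array gave 0 to 1. For FTI_48h against DMSO_48h (2 called), the count was 1 with no filter, and leaving out 1 array gave 0 to 1. For GGTI_48h against DMSO_48h (8 called), it was 4 with no filter, 16 with array weights (4 higher and 12 lower) and 18 with only the arrays compared, and leaving out 1 array gave 3 to 6. Of all genes, these 3 settings called 21.7%, 50.6% and 45.4%. For GGTI_18h against FTI_18h (2 called), the count was 1 with no filter and 0 with only the arrays compared, and leaving out 1 array gave 0 to 3. For GGTI_48h against FTI_48h (2 called), it was 0 with no filter, 1 centred on the gene median, 8 with array weights and 9 with only the arrays compared, and leaving out 1 array gave 0 to 2. Of all genes, these settings in the same order called 14%, 26%, 38% and 32.7%. For FTI_48h against FTI_18h (23 called), leaving out 1 array gave 15 to 26. For GGTI_48h against GGTI_18h (8 called), the count was 13 with array weights, where 29.6% of all genes were called, and leaving out 1 array gave 3 to 7. Both tests of inhibitor by time stayed at 0 called. The cause of these shifts was not tested. More genes were adjusted over when no filter was used, and the fits that leave some arrays out held fewer arrays.

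Where a group of 2 lost 1 array, the lone array was assumed to vary like the other groups. Centring on the median of all probe sets, an alternative chosen after seeing the data, moved the all-gene median to log2 0.11 for 18 h and 0.15 for 48 h against 0 h, small beside the members' medians. Signal over background limits sizes at 0 h for Gins1, Exo1, Mcm8 and Clspn, whose means lay at or below it. It also does so for Cdc6, Chaf1b and Pole2, each with at least 1 DMSO_0h array below that array's negative-control median. No paired analysis was possible because the labels give no replicate numbers that groups share.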

Other observations

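Regulators of S phase entry, a list of 16 genes, mostly rose after stimulation. Under DMSO, 12 rose and 2 fell at 18 h relative to 0 h, where 60.9% of all genes changed. Those that rose included Ccna2 (cyclin A, log2 2.49 ± 0.08) and Chek1 (the Chk1 kinase, 2.86 ± 0.11). E2f8, an E2F family repressor, also rose, by an amount limited by background, since it was not above the negative-control median in DMSO_0h. Cdkn1b, the cyclin-dependent kinase inhibitor p27, fell, with a change of -1.74 ± 0.11 (limma adjusted p = 2.22e-10).

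With GGTI at 48 h, 5 of these 16 genes were higher and 4 lower than in DMSO_48h, where 18.4% of all genes were higher, 21.9% lower and 40.3% changed. E2f2, an E2F activator, rose by log2 1.03 ± 0.088 (limma adjusted p = 3.57e-08), Cdkn1b by 0.94 ± 0.11 and Rb1, the retinoblastoma protein that restrains E2Fs, by 0.63 ± 0.077. Cdc25a, a phosphatase that activates cyclin-dependent kinases, fell, with a change of -0.60 ± 0.12. At 18 h GGTI went with 3 of the 16 higher and 1 lower, a share of 25% against 5.94% of all genes. Among the higher were E2f2, by 0.86 ± 0.099 (limma adjusted p = 4.47e-05), and Cdkn1b, by 0.48 ± 0.13 (limma adjusted p = 0.0306). FTI at 18 h went with higher Cdkn1b, by 0.50 ± 0.11 (limma adjusted p = 0.0219). It was the only 1 of the 16 called, where 3.3% of all genes were. Both 18 h comparisons use the same DMSO_18h arrays.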
